A study of Rattus norvegicus with 6 samples.

Results

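The brakes of the G1 phase of the cell cycle, 7 cyclin-dependent kinase (CDK) inhibitor genes and 3 pocket protein genes, were followed across H3K27me3 libraries of neonatal rat heart muscle cells. The genes were taken by symbol, ignoring case: Cdkn2a, Cdkn2b, Cdkn2c and Cdkn2d of the INK4 family, Cdkn1a, Cdkn1b and Cdkn1c of the Cip/Kip family, and Rb1, Rbl1 and Rbl2. Of these 10 genes, 9 had an entry in at least 1 library, with 1 entry each, among 22427 gene entries in all. Primary cardiomyocytes of newborn Sprague Dawley rats, grown in DMEM with serum, were exposed for 24 h to α-ketoglutarate (α-KG) at 5 mM, a tricarboxylic acid cycle metabolite that histone demethylases consume, or to phosphate-buffered saline as the control. Chromatin carrying H3K27me3, the repressive trimethyl mark on a lysine of the histone H3 tail, was precipitated and sequenced in 2 libraries per group (control 1 and 2, α-KG 1 and 2). For each library the authors deposited the names of genes with a peak, so a gene is listed or not listed, and the position, height and read depth behind each peak are unknown. Absence from a list can mean no mark, a mark too weak to be called, or a different name in the lists. It can also mean an entry without a symbol, since 17338 of the 22427 entries had a symbol. The labels do not state the number of pups, or whether the libraries of a group came from separate cultures. The 2 samples titled as inputs, whose antibody label reads IgG, were not analysed here.

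INK4 proteins bind CDK4 and CDK6 and keep D-type cyclins from activating them, whereas Cip/Kip proteins bind CDK2 complexes with cyclin E or A as well. The pocket proteins pRB, p107 and p130 hold E2F factors and keep S-phase genes silent until CDKs phosphorylate them. Heart muscle cells leave the cell cycle soon after birth, and several of these inhibitors are known to rise at that time. H3K27me3 is placed by Polycomb repressive complex 2, and the locus that holds Cdkn2a and Cdkn2b is a textbook Polycomb target in dividing cells.

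Polycomb marking in mammals is known to favour CpG-rich promoters, so the promoter sequences of the genes are shown first. RefSeq (build GRCr8) promoter sequences were matched for 9 of the 10 genes, all but Cdkn1c. The 250 bases before the start of 4 genes are printed 5′ to 3′ with each CpG in capitals. Cdkn1a and Rb1 have the lowest and the highest CpG ratio of the 7 matched genes listed in every library, Rbl1 was missing from 1 library, and Cdkn2d was listed in none. The Cdkn1a stretch (GRCr8 chr20:7150682-7150931, plus strand) holds 6 CpGs, that of Rb1 (chr15:54911858-54912107, minus strand) 45, that of Rbl1 (chr3:166289377-166289626, minus strand) 23, and that of Cdkn2d (chr8:28110810-28111059, minus strand) 20.
Cdkn1a: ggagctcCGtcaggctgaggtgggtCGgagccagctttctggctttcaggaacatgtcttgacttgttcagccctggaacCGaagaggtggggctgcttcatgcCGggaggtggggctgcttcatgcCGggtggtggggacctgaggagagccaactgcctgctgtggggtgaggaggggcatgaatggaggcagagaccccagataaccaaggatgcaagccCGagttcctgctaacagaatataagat
Rb1: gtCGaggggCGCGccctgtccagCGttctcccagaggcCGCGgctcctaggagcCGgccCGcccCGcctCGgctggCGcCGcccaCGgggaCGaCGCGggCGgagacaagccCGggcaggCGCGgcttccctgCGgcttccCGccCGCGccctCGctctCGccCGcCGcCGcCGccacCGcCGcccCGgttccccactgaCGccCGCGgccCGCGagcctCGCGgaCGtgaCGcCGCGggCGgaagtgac
Rbl1: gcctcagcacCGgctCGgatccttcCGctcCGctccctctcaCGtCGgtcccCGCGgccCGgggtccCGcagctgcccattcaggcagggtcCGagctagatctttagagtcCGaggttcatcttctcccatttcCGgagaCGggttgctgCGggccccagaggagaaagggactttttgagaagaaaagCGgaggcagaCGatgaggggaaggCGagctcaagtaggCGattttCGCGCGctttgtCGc
Cdkn2d: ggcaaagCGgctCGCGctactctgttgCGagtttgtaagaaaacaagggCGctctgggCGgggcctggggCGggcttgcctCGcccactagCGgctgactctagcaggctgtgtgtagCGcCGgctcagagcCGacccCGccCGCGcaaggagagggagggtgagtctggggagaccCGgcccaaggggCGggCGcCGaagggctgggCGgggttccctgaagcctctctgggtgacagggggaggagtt

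Of the INK4 genes, 3 of 4 carried a listed peak in every library and the other had none. Cdkn2a, which encodes p16INK4a and, from another reading frame, the ARF tumour suppressor protein, was listed in both control and both α-KG libraries. Its neighbour Cdkn2b, which encodes p15INK4b, an inhibitor that TGF-β induces, was also listed in all 4 libraries. Cdkn2c, the gene of p18INK4c, was listed in all 4 libraries too. Cdkn2d, the gene of p19INK4d, was listed in neither control library and in neither α-KG library, and a search with older symbols found no entry for it either. An entry without a symbol would be missed by both searches. RefSeq has 23154 protein-coding genes, of which 30.3% had no entry in any library, a share that includes genes whose name in the lists could not be matched.

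All 3 Cip/Kip genes were listed in all 4 libraries, so control and α-KG lists did not differ for this family. These were Cdkn1a, which encodes p21, an inhibitor induced by DNA damage, Cdkn1b, which encodes p27, an inhibitor that accumulates in resting cells, and Cdkn1c, which encodes p57 and is an imprinted gene expressed from the maternal allele. A listing does not show on which allele or in which part of the gene the peak lay.

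Among the pocket protein genes, Rbl1 was the 1 gene of the whole set whose listing varied between libraries. Rb1, the retinoblastoma tumour suppressor gene, and Rbl2, which encodes p130, the pocket protein of resting cells, were listed in all 4 libraries. Rbl1, which encodes p107, the pocket protein of dividing cells, was listed in control 1, control 2 and α-KG 2 and not in α-KG 1. The 2 α-KG libraries thus differed from each other at Rbl1, and the 2 groups overlapped. Across the series, 559 of the 14636 entries listed in the other 3 libraries were missing from α-KG 1 (3.82%), and entries listed in exactly 3 of the 4 libraries made up 12.9% of all entries. An exact permutation test of 2 against 2 libraries cannot give p below 0.333 for a single gene.

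**Figure D1:**
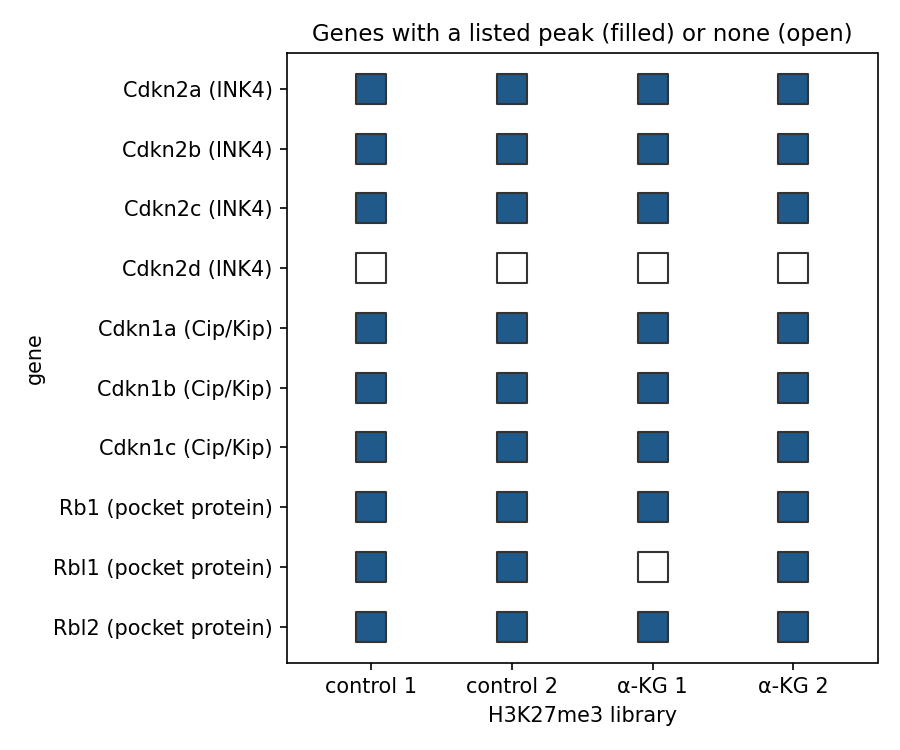
Each row is a gene with its family and each column an H3K27me3 library; a filled square stands for a listed peak and an open one for none. Cdkn2d is open in all 4 libraries, Rbl1 is open in α-KG 1, and the other 8 genes are filled throughout.

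Counted by library, control 1 listed 9 of the 10 genes, control 2 listed 9, α-KG 1 listed 8 and α-KG 2 listed 9. The mean was 9 ± 0 genes in the control libraries and 8.5 ± 0.707 in the α-KG libraries (SD, n = 2 each). The difference of -0.5 genes was smaller than the difference of 1 gene between the 2 α-KG libraries, and it rests on Rbl1 in α-KG 1. Without α-KG 1 the difference was 0, and without α-KG 2 it was -1. Of the genes with an entry, 8 of 9 were listed in all 4 libraries, where 62.8% of all entries were. Over gene symbols, 8 of 10 were listed in all 4, against 44.7% of RefSeq protein-coding genes. These shares are a description, since the set was chosen as a group of known Polycomb targets.

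Loss, defined as a listing in both control libraries and in neither α-KG library, was seen in 0 of the 9 genes that both controls listed. Of all entries that both controls listed, 3.22% were lost. Gain, the reverse pattern, was seen in 0 of the 8 genes that both α-KG libraries listed, against 4.48% of all entries in both. At these shares a set of 9 or 8 genes would hold few changed members in any case. Without α-KG 2, Rbl1 met the definition of loss (1 of 9), as did 6.72% of all entries that both controls listed. Control 1 had the shortest list, with 17245 entries, and α-KG 2 the longest, with 19181, so the library that missed Rbl1, with 18120 entries, lay between them.

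The protein domains that the authors listed beside each gene set the 3 families apart. The domain named cyclin-dependent kinase inhibitor occurred in 3 entries, which were Cdkn1a, Cdkn1b and Cdkn1c. The A-box and the B-box of the retinoblastoma pocket, the part that holds E2F, occurred together in Rb1, Rbl1 and Rbl2 and in no other entry. Cdkn2a, Cdkn2b and Cdkn2c carried the ankyrin repeat, the fold with which INK4 proteins grip CDK4 and CDK6, and it is shared by 206 entries of many functions. Of those 206 entries, 153 (74.3%) were listed in all 4 libraries, 0 were lost and 10 were gained. Over all entries in any library, 62.8% were listed in all 4, 2.3% were lost and 3.25% were gained.

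The CpG content of the promoters varied widely among the listed genes. The CpG observed-to-expected ratio, which compares the CpGs in a window with the number its C and G content would give, was taken over 300 bases, 250 before and 50 after the start. It was 0.316 for Cdkn1a and 0.446 for Cdkn2a, both below the median of 0.521 over 21851 protein-coding promoters. The ratio was 0.669 for Rbl2 and 0.722 for Cdkn2b. Cdkn2c had 0.915, Cdkn1b 0.957 and Rb1 1.17, which lay above 99.1% of all promoters. Rbl1 had a ratio of 0.948. Cdkn2d had 0.746, which lay within the range of the genes listed in all 4 libraries. The middle value of the 9 promoters was 0.746, and 7 of 9 were above the median of all promoters. Genes listed in all 4 libraries had a median ratio of 0.705 (9389 promoters) and those listed in none 0.277 (7238 promoters). The latter include genes whose name in the lists could not be matched. Between these classes the median did not rise with the number of libraries: it was 0.605 for 1 library, 0.521 for 2 and 0.519 for 3. The low number of CpGs in the printed Cdkn1a stretch and the dense runs in that of Rb1 therefore both belong to genes that every library listed. The table gives 1 start per gene, and genes such as Cdkn2a have others.

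**Figure D2:**
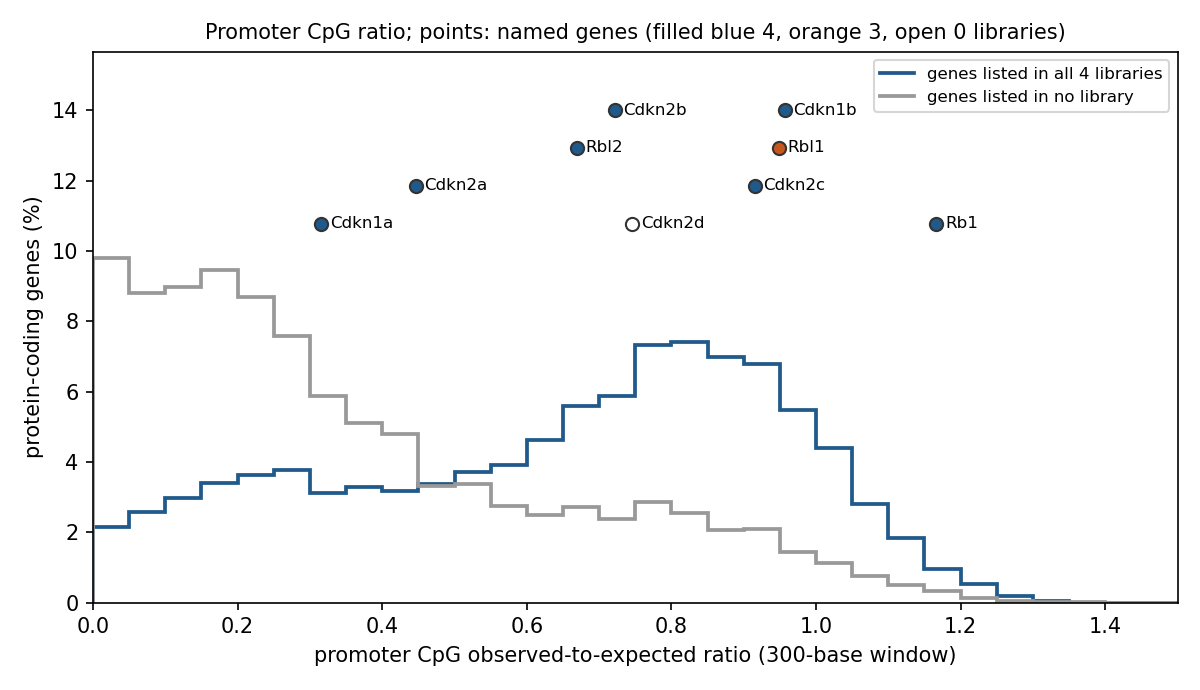
The lines give the share of protein-coding genes (%) by promoter CpG observed-to-expected ratio for genes listed in all 4 libraries and for genes listed in none; the points mark 9 named genes at their ratio, with height used only for spacing. Cdkn1a (0.316) and Cdkn2a (0.446) sit at low ratios although listed in all 4 libraries, and Cdkn2d (0.746) sits among the listed genes.

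Pocket proteins act through E2F sites, so the E2F octamers TTTCCCGC, TTTCGCGC, TTTGCCGC and TTTGGCGC were searched on both strands of the 300-base windows. Rbl1 held TTTCGCGC, which begins 18 bases before its start and is seen near the end of its printed stretch. Rb1 held TTTCCCGC within the 50 bases after its start. None of the other 7 windows held any of these octamers, and 2.74% of all protein-coding promoters did. A match of letters does not show binding.

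Genes next to the 10 genes in the RefSeq order were often listed as well, and a broad peak can be assigned to more than 1 gene. Among 55 different protein-coding neighbours, 3 on each side of each gene, 26 (47.3%) were listed in all 4 libraries, close to the 44.7% of all protein-coding genes. Control 1 listed 36 of the 55, control 2 listed 38, α-KG 1 listed 33 and α-KG 2 listed 40. Ddx47, a helicase gene near Cdkn1b, was lost, 1 of the 34 neighbours that both controls listed (3.22% of all entries in both). Dusp16, a phosphatase gene near Cdkn1b, Rcbtb2, directly beside Rb1, and Fto, a demethylase gene near Rbl2, were gained. They were 3 of the 32 neighbours that both α-KG libraries listed, against 4.48% of all entries in both. Leaving out 1 library gave up to 7 lost neighbours (without α-KG 2, when 6.72% of all entries in both controls were lost). There were 2 lost ones without control 1 (5.56% of all entries in control 2) or without α-KG 1 (8.55% of those in both controls). Gained neighbours rose to at most 5 (without control 1, when 6.81% of all entries in both α-KG libraries were gained). This setting was chosen after the data were seen. Ddx47, Dusp16, Rcbtb2 and Fto lie near inhibitor and pocket protein genes whose own listing did not vary.

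Cdkn2a and Cdkn2b lie beside each other, with the RefSeq gene LOC134479006 between them, which had no entry. On the outer side of Cdkn2a, Mtap, a methionine salvage enzyme gene, was listed in control 1, α-KG 1 and α-KG 2 and not in control 2. On the outer side of Cdkn2b, Dmrta1, a DM-domain transcription factor gene, was listed in all 4 libraries. Whether Cdkn2a and Cdkn2b share 1 peak cannot be told from gene names.

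Several genes around Cdkn2d had entries, although Cdkn2d had none. Ap1m2, a clathrin adaptor subunit gene next to it, and S1pr5, a sphingosine phosphate receptor gene, were listed in all 4 libraries. Kri1, the neighbour on the other side, and Slc44a2 were listed in every library but α-KG 1, and Atg4d in every library but control 1. The direct neighbours of Rbl1, which are Samhd1, a nucleotide triphosphate hydrolase gene, and Mroh8, were both listed in all 4 libraries, including α-KG 1, where Rbl1 was missing. Ghrh, the third gene on the Mroh8 side, had the same listing as Rbl1, and Rpn2 was listed in control 2 and α-KG 2. Kcnq1, the potassium channel gene of the imprinted domain that holds Cdkn1c, was listed in all 4 libraries, as was the imprinted gene Phlda2 on the other side. Slc22a18, which lies between Cdkn1c and Phlda2, was missing from α-KG 1. The direct neighbours of Rbl2, Aktip and Chd9, were listed in all 4 libraries. So were Srsf3, a splicing factor gene beside Cdkn1a, Apold1 beside Cdkn1b, and Faf1 beside Cdkn2c. The direct neighbours on their other sides were not listed throughout. Rab44 beside Cdkn1a was missing from α-KG 1, Gpr19 beside Cdkn1b was listed in control 2 alone, and LOC134479085 beside Cdkn2c had no entry.

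**Figure D3:**
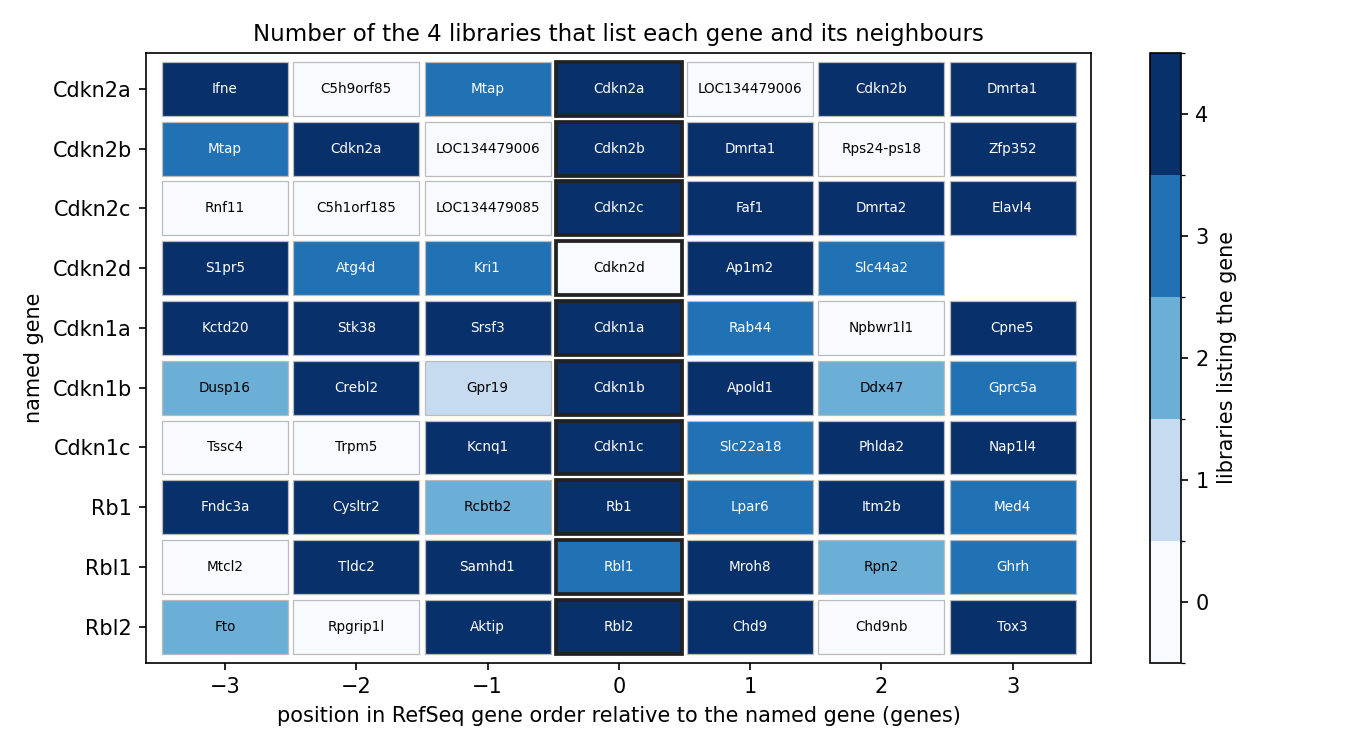
Each row shows a named gene (heavy frame) and its 3 protein-coding neighbours on each side in RefSeq order; the shade gives how many of the 4 libraries listed a gene. The 5 neighbours shown for the unlisted Cdkn2d are each listed in at least 3 libraries (1 neighbour is not shown), and both direct neighbours of Rbl1 are listed in all 4 libraries.

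The partners and regulators of these proteins, 80 genes in 5 groups, held 64 genes listed in all 4 libraries. That is the same share as 8 of the 10 inhibitors and pocket proteins, against 44.7% of RefSeq protein-coding genes. Control 1 listed 66 of the 80, control 2 listed 71, α-KG 1 listed 71 and α-KG 2 listed 71. The mean was 68.5 ± 3.54 in the control libraries and 71 ± 0 in the α-KG libraries (SD, n = 2 each), and the difference of 2.5 genes was smaller than the 5 genes between the 2 controls. It was 0 without control 1 and 5 without control 2. Loss was seen in 0 of the 66 genes that both controls listed, against 3.22% of all entries in both. Gain was seen in 2 of the 68 that both α-KG libraries listed, against 4.48% of all entries in both. Leaving out control 2 or α-KG 1 raised the gained genes to 4. The shares gained were then 11.2% of all entries in both α-KG libraries and 11.9% of those in α-KG 2. Leaving out control 1 or α-KG 1 gave 2 lost ones. The shares lost were then 5.56% of all entries in control 2 and 8.55% of those in both controls.

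The CDK and cyclin group held 13 genes, not all of them targets of the inhibitors. Of these, 10 were listed in all 4 libraries, against 44.7% of RefSeq protein-coding genes. The 10 include Ccnd1, Ccnd2 and Ccnd3, the D-type cyclins, Ccne1 and Ccne2, and Cdk6, a direct target of INK4 proteins. Cdk4, the other INK4 target, had no entry in any library, nor had Cdk7, the CDK-activating kinase gene. Cdk2, the main kinase bound by p21 and p27, was listed in α-KG 2 alone. The 2 targets of INK4 proteins thus differed, as did the INK4 genes themselves.

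All 8 E2F genes, from E2f1 to E2f8, were listed in all 4 libraries, while the genes of their partners varied. Of the dimer partner genes, Tfdp1 had no entry and Tfdp2 was listed in every library but α-KG 2. The DREAM complex, in which p107 or p130 joins E2F and the MuvB core to silence cell cycle genes, varied subunit by subunit. Of the MuvB core, Lin54, its DNA-binding subunit, was gained, Lin9 and Lin52 were listed in control 2 alone, Lin37 had no entry, and Rbbp4 was listed in all 4 libraries. Mybl2 and Foxm1, activators that replace the pocket proteins on MuvB, were listed in all 4 libraries. In all, 13 of the 19 genes of this group were listed in all 4, against 44.7% of RefSeq protein-coding genes.

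The ubiquitin ligase group held 11 genes, not all of them for the degradation of the inhibitors. Of these, 6 were listed in all 4 libraries, against 44.7% of RefSeq protein-coding genes. Skp2, the receptor that marks p27 for destruction, was listed in every library but α-KG 2, and its cofactor gene Cks1b was listed in all 4. Rnf123, the KPC ligase subunit that ubiquitinates p27 in the cytoplasm, was gained. Ddb1 was listed in α-KG 2 alone and Fbxw7, the cyclin E receptor, in α-KG 1 alone. Rbx1, the RING subunit of some of these ligases, was missing from control 1. The α-KG libraries listed 10 and 9 of the 11 genes and the controls 7 and 8, so the groups did not overlap in this count. Of all entries, the α-KG libraries listed 80.8% and 85.5% and the controls 76.9% and 82.2%. The total lengths of the lists did overlap, and 1 gene of this group, Rnf123, was gained, where 4.48% of all entries in both α-KG libraries were.

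Regulators of inhibitor transcription were listed nearly throughout. Of 25 genes, 24 were listed in all 4 libraries, against 44.7% of RefSeq protein-coding genes. Among the 24 were Bmi1 and Cbx7, Polycomb repressors of the Cdkn2a locus, and Foxo1 and Foxo3, which activate Cdkn1b. Another was Meis1, a transcription factor that activates inhibitor genes in heart muscle. Of 12 related antiproliferative genes, 11 were listed in all 4 libraries, such as Cdkn3, Gadd45a and Wee1, against the same 44.7%. Btg2 was listed in control 2 and α-KG 2.

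**Figure D4:**
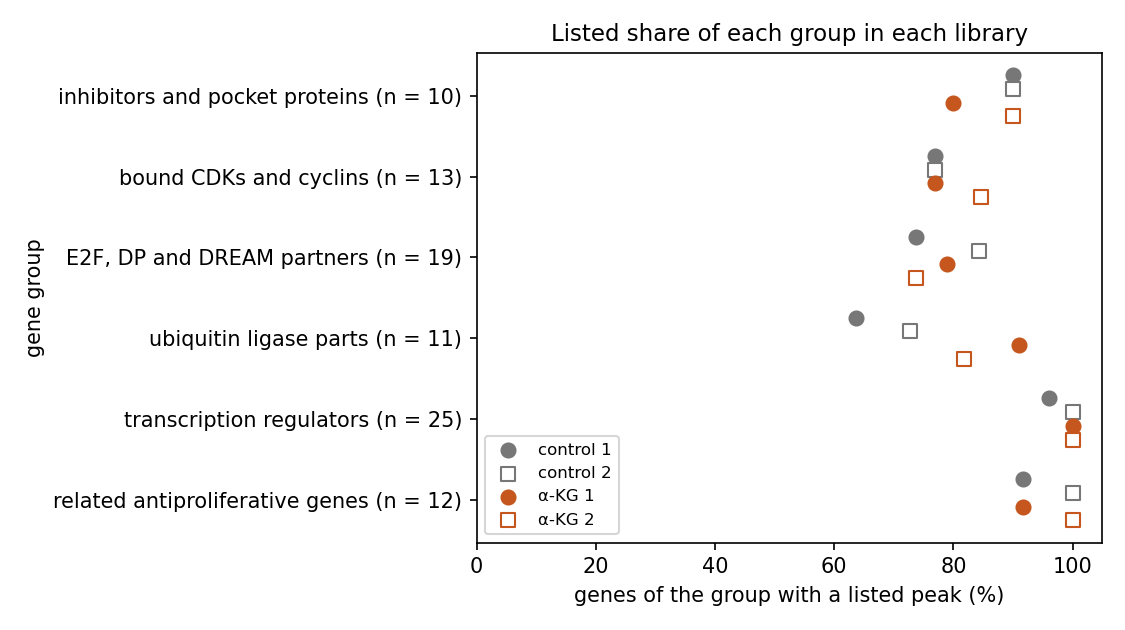
Each point is the share (%) of a group's genes that 1 library listed, with grey for control and orange for α-KG libraries, filled circles for replicate 1 and open squares for replicate 2. The ubiquitin ligase group is the 1 group in which both α-KG points (10 and 9 of 11 genes) lie above both control points (7 and 8). The shares over all entries, not drawn, were 80.8% and 85.5% for α-KG and 76.9% and 82.2% for control libraries.

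No gene of the 5 groups had the same listing over the 4 libraries as Rbl1, a listing that 559 of all 22427 entries shared. The 8 genes listed in all 4 libraries tied with 14077 entries, so 4 yes or no values cannot single out genes that resemble them. The cell type was checked against marker genes, which this mark can describe but not settle. Of 10 cardiomyocyte markers, 4 were listed in all 4 libraries, namely Tnnt2, Myl2, Actn2 and Actc1, and Myh6 had no entry. Of RefSeq protein-coding genes, 44.7% were listed in all 4 libraries, a share near that of these markers. Ryr2, the calcium release channel gene, was listed in both controls and neither α-KG library and so was lost. It was the 1 lost gene of the 9 cardiomyocyte markers with an entry, where 2.3% of all entries were lost. Myh7 and Myl7 were listed in α-KG 2 alone, Tnni3 in α-KG 1 alone and Nppa in control 2 alone. Of 23 markers of fibroblasts, endothelium, smooth muscle and immune cells, control 1 listed 15, control 2 listed 17, α-KG 1 listed 13 and α-KG 2 listed 18. All 4 libraries listed 12 of the 23 (52.2%), against 44.7% of RefSeq protein-coding genes. A peak of a repressive mark does not show which cells carried it, and the part of other cells in the listings above was not tested.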

How the data were processed

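The authors deposited, for each H3K27me3 library, a table without header that gives the Ensembl gene ID, symbol and protein domains of every gene with a peak, and no number. CASAVA, BWA, MACS2 and build rn6 appear in the submitters' processing notes, with no role or version. The rule that assigned peaks to genes, the use of an input and the read depth are not given in the sources, so no interval was computed. Counting used pandas 2.3.3 under Python 3.11.15, with figures drawn with matplotlib 3.10.9. Of 22427 entries, 17338 had a symbol. Listing, loss and gain were counted with no test. RefSeq tables of assembly GRCr8, another build than rn6, served for names, gene order and promoters, and 16135 of 23154 protein-coding genes matched an entry. The genes and groups were chosen with earlier results of these data known. The rule names all 10 genes, partners lost, gained or without entry, and 3 neighbours on each side. The text describes part of these neighbours, the plot of neighbours shows the rest, and some genes are not reported here. Partners given as examples, or listed in 1 to 3 libraries, were chosen after their values were seen. Alternatives tried left out 1 library at a time or used a replicate block, other symbol matching, other backgrounds, a shorter promoter window and 5 neighbours.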

Additional observations from a re-analysis of the deposited data

How the results depend on the processing

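The number of the 10 genes listed in all 4 libraries was 8, and 8 to 9 were listed in all of the remaining libraries when 1 was left out. Leaving out 1 library gave a difference of -1 to 0 listed genes between α-KG and control, 0 to 1 lost genes and 0 to 0 gained genes, with Rbl1 lost without α-KG 2. For the 80 partners and regulators it gave a difference of 0 to 5 genes, 0 to 2 lost genes and 2 to 4 gained genes. The lost ones were Lin9 and Lin52 without control 1, and Tfdp2 and Skp2 without α-KG 1. Gained genes besides Lin54 and Rnf123 included Rbx1 without control 2, Cdk2 and Ddb1 without α-KG 1, and Fbxw7 without α-KG 2. Fewer libraries then have to share a pattern, and the shares over the series rose as well. Loss rose to between 5.24% and 8.55% of all entries in every control library kept. Gain rose to between 6.53% and 11.9% of those in every α-KG library kept. With a replicate block the differences were -0.5 and 2.5 genes, as without it, because group means of equal size give the same difference. Deviations of same-numbered libraries from their group means correlated at 0.0478 over entries, and with 2 pairs this does not show pairing. Matching older symbols or exact case alone moved no count by over 1.5 times. Ensembl IDs could not be matched, since the RefSeq table used here pairs 0 genes with one. Of all entries in any library, 2.3% were lost and 3.25% gained. The median CpG ratio was 0.780 without the bases after the start, and 49.5% of neighbours were listed in all 4 libraries with 5 on each side. Read depth is unknown, so a gene missing from a list cannot be told from one below detection.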
